A study of Homo sapiens with 45 samples.

Results

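A set of 10 genes that mark the epithelial state or the switch to a mesenchymal state were followed through the RNA and chromatin data of HCT116, an established line of human colon cancer cells. The 10 genes were taken by symbol from 28278 gene names in the count table, 5 epithelial (CDH1, EPCAM, CLDN4, ESRP1 and CDX2) and 5 mesenchymal (VIM, ZEB1, SNAI1, SNAI2 and FN1), and all 10 names were found. Cells were transfected with siRNA at 25 nM and collected after 72 hours. The siRNA was directed against HNRNPK, which encodes the RNA- and DNA-binding protein hnRNP K, or was nontargeting. RNA was sequenced from 4 siNTC5 control libraries, 4 siHNRNPK libraries and 2 further nontargeting libraries named Scramble. Libraries 1 and 2 of siNTC5 and siHNRNPK and both Scramble libraries were made with a TruSeq kit, and libraries 3 and 4 with a Ligation kit. The RNA of the Scramble libraries was purified with another kit than the rest, and their counts came in tables of their own. Chromatin was profiled by ChIP-seq for lamin B1 (LMNB1), H3K9me3 and H3K27me3 after control and HNRNPK siRNA, and for H3K9me2 after control siRNA. All groups are 1 cell line in culture, and the labels do not say whether libraries of a group came from separate cultures, so p-values measure the spread between these libraries, which may be technical.

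Epithelial cells hold to their neighbours through junctions built on E-cadherin and claudins, and they splice many transcripts in an epithelial pattern set by ESRP proteins. In the epithelial to mesenchymal transition, repressors of the ZEB and SNAI families bind E-box sequences at epithelial genes, E-cadherin is lost, and vimentin and fibronectin are gained. Carcinoma lines often sit between both states. CDX2 is a transcription factor that directs intestinal identity.

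The 8 libraries of the knockdown comparison held 12107280 to 23633851 counts and the Scramble libraries 55007171 and 59209169. Levels are given as TMM-normalised counts scaled to library size (CPM), and a difference was called at an adjusted p under 0.05 in edgeR's quasi-likelihood test with library kit as a term. HNRNPK itself lay at 814 to 967 CPM in siNTC5 and at 157 to 250.3 CPM in siHNRNPK. Its log2 fold change was -2.17 (SE 0.06, edgeR adjusted p = 7.293e-15). Among 8 markers of colon epithelium, 6 were measured well enough to be tested, while VIL1 had at most 6 counts and LGALS4 at most 1 in any of the 8 libraries. Of 9 fibroblast markers 2 were tested, with LUM and PDGFRA at 0 counts in all 8 libraries, and the list's summed level was 44.7 to 73.8 CPM in siNTC5 and 75.7 to 122 CPM in siHNRNPK. Most of that sum was COL1A1, with means of 60.1 CPM in siNTC5 and 97.6 CPM in siHNRNPK (log2 0.69, edgeR adjusted p = 8.496e-09). PDGFRB, also tested, did not pass (log2 -0.61, edgeR adjusted p = 0.1452). Of 7 leukocyte markers only ITGAM was tested, CD3E was at 0 counts in all 8 libraries, PTPRC had at most 2, and the summed level was 1.83 to 2.37 CPM against 7.36 to 9.40 CPM. Of 6 endothelial markers only VWF was tested, with sums of 1.17 to 1.67 CPM against 2.7 to 4.67 CPM. The part of these cell types in the results was not tested. In bulk RNA, fewer cells of a kind and less RNA per cell cannot be told apart.

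After HNRNPK siRNA the epithelial members split and the mesenchymal members did not rise. Against siNTC5, CDH1 and EPCAM rose by a like amount, CLDN4 fell, and ESRP1 and CDX2 did not pass the test. VIM fell to 31.3% of its control mean and FN1 fell slightly, while ZEB1 and SNAI1 did not pass and SNAI2 was too scarce to be tested. Of the 9 members tested, 5 were called, 2 higher and 3 lower, in a comparison that called 71.5% of 13933 tested genes (35.5% higher and 36.1% lower). The share of members called was thus not above that of all genes, and the reading below rests on each gene's own values. The median log2 fold change was -0.00 over the 5 epithelial members and -0.11 over the 4 tested mesenchymal members, beside -0.00 over all tested genes.

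CDH1 encodes E-cadherin, the adhesion protein of adherens junctions, and lies at chr16:68737292-68835537 (GRCh38). It was at 106, 96.2, 94.9 and 98.8 CPM in siNTC5 libraries 1 to 4 and at 172, 153, 149 and 153 CPM in siHNRNPK libraries 1 to 4. Every knockdown library lay above every siNTC5 library, a separation upward that 28.5% of tested genes showed. The log2 fold change was 0.66 (SE 0.05, 95% interval 0.56 to 0.77, edgeR adjusted p = 8.655e-10). It was 0.69 in the TruSeq libraries alone, where 57.8% of genes were called, and 0.63 in the Ligation libraries alone, where 68.1% were.

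EPCAM, an adhesion protein on the surface of most simple epithelia, lies at chr2:47369311-47387020. Its 4 siNTC5 libraries sat within 245 to 250.4 CPM, and the siHNRNPK libraries were at 378, 388, 418 and 400.5 CPM. The groups were again fully apart, with a log2 fold change of 0.67 (SE 0.04, 95% interval 0.59 to 0.75, edgeR adjusted p = 3.515e-11). Within the kits the log2 fold changes were 0.64 (TruSeq) and 0.70 (Ligation).

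CLDN4, a claudin of tight junctions at chr7:73830996-73832690, moved the other way. Its siNTC5 libraries were at 155, 108, 167 and 152 CPM and its siHNRNPK libraries at 90.6, 85.3, 126 and 130.4 CPM. The ranges overlapped because siNTC5 library 2 lay below both Ligation knockdown libraries, while within each kit both knockdown libraries lay below both controls. The log2 fold change was -0.44 (SE 0.08, 95% interval -0.62 to -0.27, edgeR adjusted p = 1.021e-04), with -0.57 in the TruSeq and -0.32 in the Ligation libraries.

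ESRP1, the splicing factor that sets epithelial exon choice, stayed within 208 to 231 CPM in siNTC5 and 212 to 218 CPM in siHNRNPK. The narrower knockdown range lay inside the control range. Its log2 fold change was -0.05, with a 95% interval of -0.14 to 0.03 (edgeR adjusted p = 0.266). CDX2 was at 10.4 to 13.4 CPM in siNTC5 and 9.06 to 14.2 CPM in siHNRNPK, with a log2 fold change of -0.00 and an interval of -0.24 to 0.24 (edgeR adjusted p = 0.99). For both genes these intervals bound any difference from siNTC5 to less than the change measured in CDH1 or EPCAM.

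**Figure D1:**
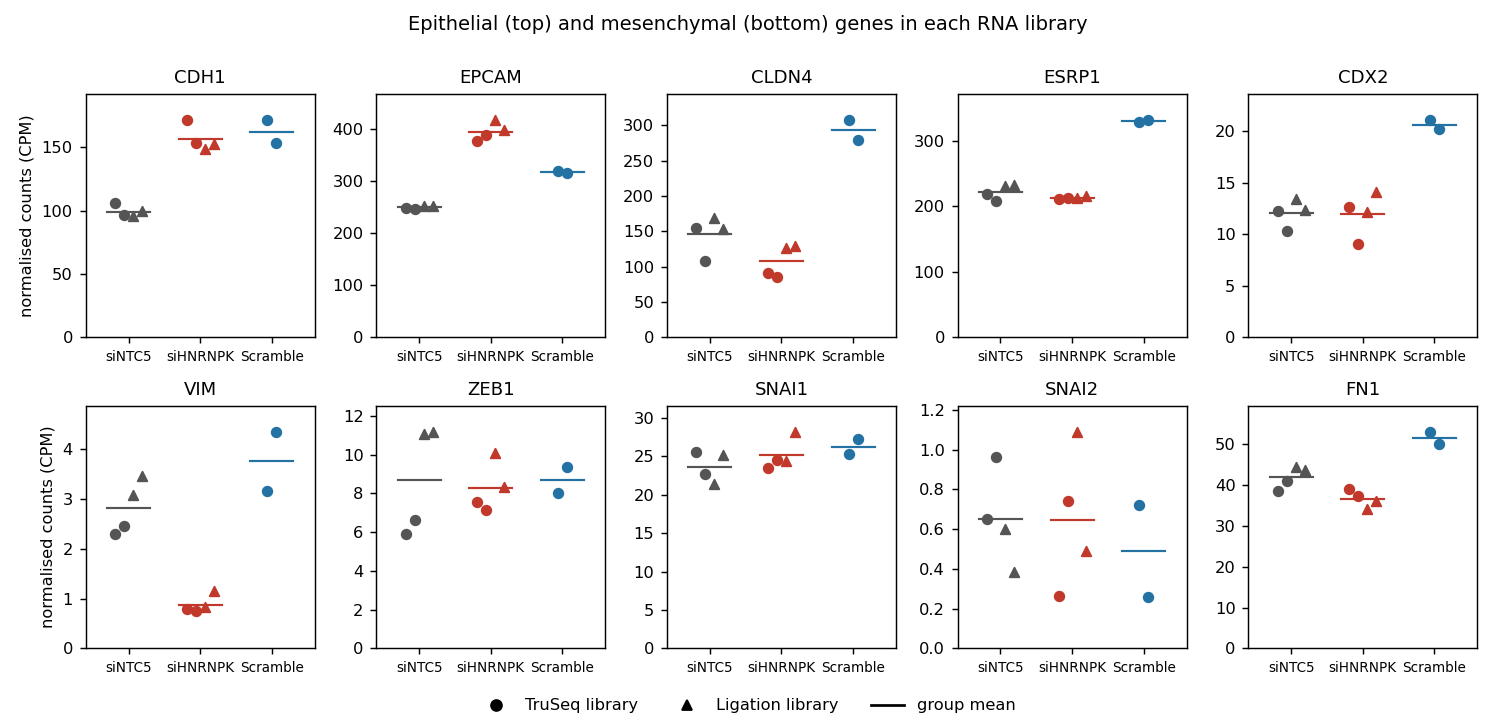
Levels of the 10 genes in every RNA library, as TMM-normalised counts (CPM) over all 10 libraries, with 1 panel per gene and axes from 0. Circles are TruSeq and triangles Ligation libraries, and bars are group means; CDH1 and EPCAM lie higher and VIM lower in all 4 siHNRNPK libraries than in all 4 siNTC5 libraries, and the Scramble libraries lie above siNTC5 for each epithelial gene.

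VIM encodes vimentin, the intermediate filament of mesenchymal cells, and lies at chr10:17228241-17237593. It was scarce in these cells, with 39, 59, 46 and 63 counts in siNTC5 libraries 1 to 4 and 12, 10, 10 and 14 counts in siHNRNPK. In CPM the controls were at 2.31, 2.46, 3.06 and 3.45 and the knockdown libraries at 0.791, 0.743, 0.843 and 1.15. All 4 knockdown libraries lay below all 4 controls, a separation downward that 28% of tested genes showed. The log2 fold change was -1.67 (SE 0.23, 95% interval -2.15 to -1.19, edgeR adjusted p = 2.973e-06), the largest among the members in size, and it was -1.62 in the TruSeq and -1.71 in the Ligation libraries. VIM-AS1, which overlaps the gene, had 1 to 13 counts in siNTC5 and 1 to 7 in siHNRNPK. The strand counted is not given in the sources used here, and reads of a gene and its antisense partner then cannot be told apart.

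FN1 encodes fibronectin, a protein of the extracellular matrix, at chr2:215360865-215436068. Its levels were 38.6, 41.0, 44.2 and 43.4 CPM in siNTC5 and 39.1, 37.1, 34.1 and 36.4 CPM in siHNRNPK. Knockdown library 1 lay above control library 1, and the other 3 knockdown libraries lay below all controls. FN1 passed with a log2 fold change of -0.18 (SE 0.07, edgeR adjusted p = 0.0209). The fall was -0.32 in the Ligation libraries (adjusted p = 0.00059) and -0.06 in the TruSeq libraries (adjusted p = 0.63, edgeR), and the call was lost without siHNRNPK library 3 (adjusted p = 0.075), siNTC5 library 3 (0.074) or siNTC5 library 4 (0.064), with upper-quartile scaling (0.061) and with a mean of at least 50 counts as the filter (0.051). ATIC, which overlaps FN1, had a log2 fold change of 0.24.

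ZEB1, SNAI1 and SNAI2 encode the zinc-finger repressors of epithelial genes. ZEB1 (chr10:31318417-31529804) was at 5.93 and 6.60 CPM in the TruSeq and 10.99 and 11.1 CPM in the Ligation libraries of siNTC5. In siHNRNPK it was at 7.58 and 7.13 CPM in the TruSeq and 10.1 and 8.41 CPM in the Ligation libraries. Both knockdown libraries thus lay above both controls with the TruSeq kit and below both with the Ligation kit. The log2 fold change over all 8 was -0.03 (95% interval -0.29 to 0.23, edgeR adjusted p = 0.86). Neither kit alone passed, at 0.23 (adjusted p = 0.30) and -0.27 (adjusted p = 0.096), and the difference between kits was -0.48 with an unadjusted p of 0.045 and an adjusted p of 0.41 in edgeR. ZEB1-AS1 overlaps the gene and had 23 to 41 counts over the 8 libraries.

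SNAI1 (chr20:49982980-49988886) lay at 21.3 to 25.6 CPM in siNTC5 and 23.5 to 28.4 CPM in siHNRNPK, ranges that overlapped, with a log2 fold change of 0.09 and an interval of -0.09 to 0.27 (edgeR adjusted p = 0.34). SNAI2 had 11, 23, 9 and 7 counts in siNTC5 and 4, 10, 13 and 6 in siHNRNPK and fell below the filter on low counts. Its CPM ranges of 0.383 to 0.961 and 0.264 to 1.10 overlapped (exact permutation test, two-sided, p = 1.0, n = 4 and 4, where 0.02857 is the smallest p the design allows), and a change was not detectable at this depth.

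A difference between the library kits in the change after knockdown was called for 0 of the 9 members tested, in an edgeR interaction test that called 0.129% of genes. With so few libraries per kit, a missing call does not show that the change was equal. FN1 came next to ZEB1, with an interaction of -0.25 at an unadjusted p of 0.0503. With DESeq2's Wald test the number of members called was 0 as well.

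The Scramble libraries carry a nontargeting siRNA, as siNTC5 does, and give each member a further control level. The siRNA, the purification kit, the depth and the count table all differ between them and cannot be told apart. The tables do not count all genes alike: of 25527 shared names, 213 had at most 10 counts in each of the 8 libraries and at least 1000 in each Scramble library, and 1 name showed the reverse. The polarity gene SCRIB, for one, had 7510 and 6114 counts in Scramble and at most 1 in any other library, and TJP1, a scaffold of tight junctions, had 13320 and 12276 against 51 to 87 (both named after their values were seen). Values across tables below carry that limit, which was not tested gene by gene for the members or for the lists of related genes.

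All 5 epithelial members were higher in Scramble than in siNTC5, in a comparison that called 68.6% of 14263 genes (35.1% higher and 33.5% lower). CDH1 was at 171 and 153 CPM in Scramble, where siNTC5 had a mean of 99.3 ± 4.74 (SD, n = 4) and siHNRNPK one of 156 ± 10.1 (SD, n = 4) on the scale of the 10 libraries. Scramble thus stood in the range of the knockdown for CDH1: the log2 fold change was 0.64 for Scramble against siNTC5 (edgeR adjusted p = 4.813e-06). With Scramble as the control in the TruSeq libraries, siHNRNPK gave -0.01 for CDH1 (95% interval -0.14 to 0.13, edgeR adjusted p = 0.94). With the Scramble libraries pooled into the siNTC5 controls the estimate was 0.45 (edgeR adjusted p = 0.049). The rise of CDH1 was thus seen against siNTC5 and not against Scramble alone.

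EPCAM was at 319 and 315 CPM in Scramble, between both other groups and overlapping neither. Its log2 fold change was 0.31 for Scramble against siNTC5 (edgeR adjusted p = 1.473e-04) and 0.26 for siHNRNPK against Scramble (edgeR adjusted p = 4.348e-05), so EPCAM was higher after knockdown than in either control. CLDN4 was at 307 and 279 CPM in Scramble, against 146 ± 25.9 in siNTC5 and 108 ± 23.1 in siHNRNPK (SD, n = 4 each). The fall of CLDN4 had a log2 fold change of -1.74 against Scramble (edgeR adjusted p = 1.027e-14), the same direction as against siNTC5 and larger. With the Scramble libraries pooled into the controls its estimate was -0.85 and missed the threshold (edgeR adjusted p = 0.053).

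ESRP1 was at 329 and 332 CPM and CDX2 at 21.1 and 20.3 CPM in Scramble, above every other library. In all, 39.1% of genes lay above and 31.9% below all siNTC5 libraries in both Scramble libraries. Against Scramble, siHNRNPK gave log2 fold changes of -0.65 for ESRP1 and -0.93 for CDX2 (edgeR adjusted p = 6.594e-10 and 4.175e-06), where against siNTC5 neither had passed. The control chosen decided the call for CDH1, ESRP1 and CDX2. It did not decide the direction for EPCAM and CLDN4.

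Of the mesenchymal members, VIM was at 3.16 and 4.36 CPM in Scramble and siHNRNPK lay below both libraries. The log2 fold change of siHNRNPK against Scramble was -2.29 for VIM (95% interval -2.99 to -1.60, edgeR adjusted p = 5.283e-06), so VIM fell against both controls. FN1 was at 53.1 and 50.1 CPM in Scramble, above every siNTC5 library, and gave -0.44 for siHNRNPK against Scramble (edgeR adjusted p = 3.195e-05). ZEB1, at 8.01 and 9.34 CPM, and SNAI1, at 25.3 and 27.2 CPM, did not pass in that comparison (-0.24 and -0.14, edgeR adjusted p = 0.15 and 0.18). SNAI2 had 0.721 and 0.260 CPM in Scramble and passed in neither comparison. Against siNTC5 of the same kit, Scramble was called higher for VIM (0.60), ZEB1 (0.41) and FN1 (0.33). The calls for VIM and ZEB1 were lost without Scramble library 2 (edgeR adjusted p = 0.24 and 0.14) and without siNTC5 library 1 (0.077 and 0.072), and the one for VIM also without any of siNTC5 libraries 2, 3 and 4 (0.072, 0.055 and 0.052). Both were lost as well with upper-quartile scaling (0.061 and 0.052), with no scaling beyond library totals (0.12 and 0.16), with DESeq2's Wald test (0.092 and 0.053) and with no kit term (0.16 and 0.93), so that VIM passed in 6 and ZEB1 in 9 of 15 alternatives. Comparisons that share siNTC5 or siHNRNPK libraries are not independent, and their values stand here side by side. Over all genes siHNRNPK against Scramble called 79% of 15080, 37.3% higher and 41.7% lower.

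**Figure D2:**
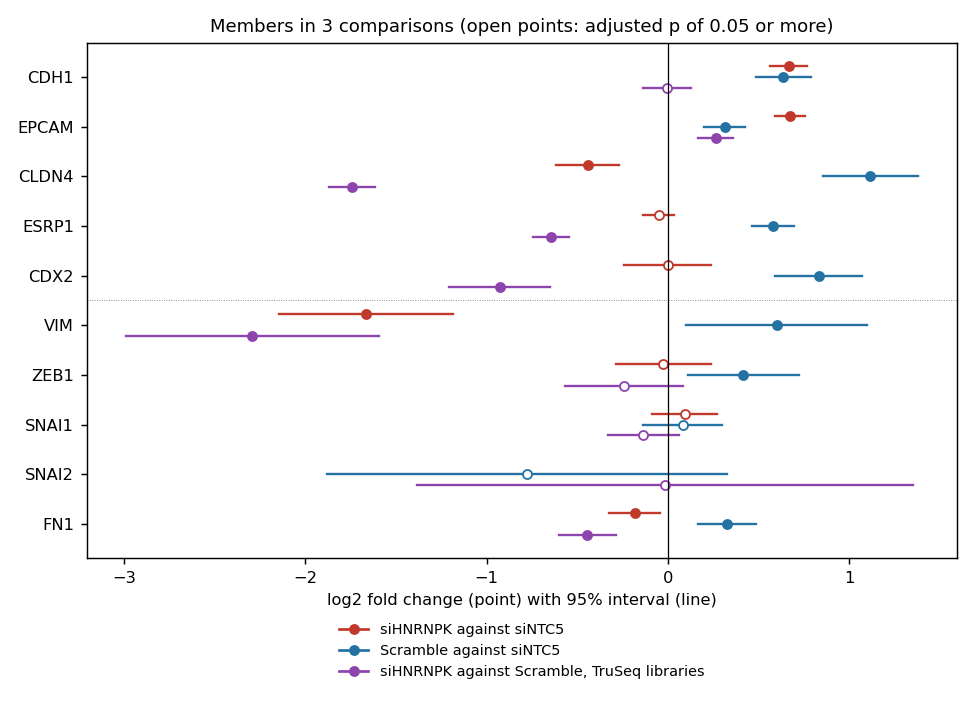
Log2 fold changes of the 10 genes (points, with lines for the 95% interval) for siHNRNPK against siNTC5 in red, Scramble against siNTC5 in blue and siHNRNPK against Scramble in the TruSeq libraries in purple; open points did not pass an adjusted p of 0.05. EPCAM, CLDN4, VIM and FN1 passed with one sign in red and purple, while CDH1 is at 0.66 in red and -0.01 in purple. SNAI2 has no red point because it was not tested there.

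The ChIP-seq data are lists of broad domains, 1 list per antibody and treatment, with edges in steps of 5 kb, apart from 1 to 6 edges per list, and a deposited score per domain whose unit is not stated. With no list per replicate, the differences between lists have no replicate check. H3K9me3 marks constitutive heterochromatin, H3K27me3 is laid down by Polycomb, and lamin B1 marks chromatin at the nuclear lamina. No member had any base of its body in a lamin B1 or H3K9me2 domain, while of genes with a RefSeq position 13% had at least 50% of their body in a control lamin B1 domain, 9.23% in a knockdown lamin B1 domain and 9.07% in an H3K9me2 domain.

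VIM had 0% of its body in H3K9me3 domains in the control list, where the nearest domain (chr10:17240001-17305000, score 0.522) began 2407 bp beyond its 3′ end. In the knockdown list a domain at chr10:17230001-17380000 (score 0.623) covered 81.2% of the body. At least 50% of the body lay in H3K9me3 domains for 9.43% of genes in the control list and 13.3% in the knockdown list, and 3.89% crossed that level as VIM did. With 10 kb added on either side of VIM, 25.9% lay in H3K9me3 domains in the control list and 59.9% in the knockdown list. The score of the VIM domain was below the median of 0.709 in its list, and with the domains at or above the median alone VIM had 0% in both lists. Among 404 tested genes that newly reached 50%, 143 (35.4%) were called higher and 138 (34.2%) lower in siHNRNPK. Of all 13481 tested genes with a position, 35.5% were called higher and 36.3% lower. The median log2 fold change was -0.00 in both sets. VIM is 1 of the 138.

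ZEB1 had 35.4% of its body in an H3K9me3 domain in the control list (chr10:31455001-31740000, score 0.588) and 49.6% in the knockdown list (chr10:31425001-31765000, score 1.09). The domain covered the 3′ part of the gene and did not reach its start. SNAI2 lay wholly in an H3K27me3 domain in both lists (scores 0.398 and 0.452), as did at least 50% of the body of 22.7% of genes in the control and 20.9% in the knockdown list. Both scores were below the median of their list (0.884 in the control and 0.923 in the knockdown list). With the domains at or above the median alone, 0 members had at least 50% of their body in an H3K27me3 domain in either list. The 7 other members had no base in any of the 7 lists.

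**Figure D3:**
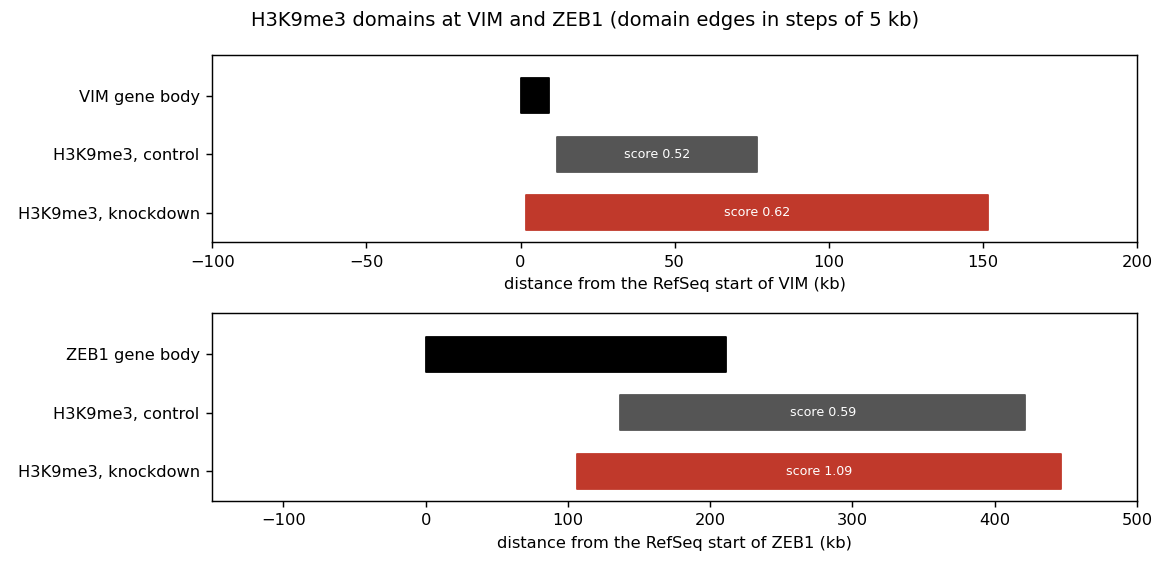
H3K9me3 domains of the control (grey) and knockdown (red) lists around VIM and ZEB1, in kb from each gene's RefSeq start, with the gene body in black and the deposited score inside each domain. The knockdown domain covers 81.2% of VIM, where the control domain begins beyond the gene, and the ZEB1 domain widens from 35.4% to 49.6% of the gene.

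The bases before the start site are shown for VIM, the member that fell most and whose domain edge moved, for CLDN4, the epithelial member that fell, and for ZEB1, a repressor whose domain widened. They come from RefSeq (GRCh38.p14), 250 bases before the annotated start on the plus strand, at chr10:17227991-17228240 (VIM), chr7:73830746-73830995 (CLDN4) and chr10:31318167-31318416 (ZEB1, the outermost of its 7 annotated starts). Capitals mark either of the motifs searched on both strands: the E-box CACCTG, read by ZEB and SNAI proteins, and CCCTCCCC, the core of the CT element that hnRNP K is known to bind upstream of MYC. In the VIM stretch the core stands as its reverse complement, GGGGAGGG, and in the ZEB1 stretch the E-box does, as CAGGTG.
VIM: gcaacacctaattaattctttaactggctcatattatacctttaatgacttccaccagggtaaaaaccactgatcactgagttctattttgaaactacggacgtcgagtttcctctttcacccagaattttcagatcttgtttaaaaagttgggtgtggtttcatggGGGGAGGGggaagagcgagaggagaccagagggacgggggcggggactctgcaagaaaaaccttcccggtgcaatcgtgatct
CLDN4: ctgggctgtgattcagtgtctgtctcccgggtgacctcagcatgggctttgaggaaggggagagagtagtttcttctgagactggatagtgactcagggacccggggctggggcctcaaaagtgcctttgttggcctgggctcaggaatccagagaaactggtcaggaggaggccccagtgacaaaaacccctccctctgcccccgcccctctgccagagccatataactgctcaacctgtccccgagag
ZEB1: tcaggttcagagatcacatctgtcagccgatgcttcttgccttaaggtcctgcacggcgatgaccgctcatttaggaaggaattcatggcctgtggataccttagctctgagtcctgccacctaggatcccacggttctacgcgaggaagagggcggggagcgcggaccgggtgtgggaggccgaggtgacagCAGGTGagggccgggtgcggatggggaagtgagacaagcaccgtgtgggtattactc

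The VIM stretch holds 1 CT core, 83 bases before the start, and no E-box, and it ends before the knockdown H3K9me3 domain begins. The CLDN4 stretch holds neither motif. The ZEB1 stretch holds 1 E-box, 57 bases before the start, and no CT core. Of the 6 other annotated ZEB1 starts, 3 had CT cores in the same window (3, 1 and 1) and 1 of these also had 2 E-boxes. Over 35116 RefSeq promoters of the same length, 17.5% held the E-box and 12.7% the CT core, so such matches are common and describe the letters only. FN1 held neither and CDX2 1 CT core; CDH1, EPCAM, ESRP1, SNAI1 and SNAI2 were not searched.

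Around the members, lists of related genes moved in both directions after knockdown. Of 34 tested genes of epithelial junctions and polarity, 13 rose and 16 fell, beside 35.5% and 36.1% of all genes, with a median log2 fold change of -0.04. Among them OCLN, a protein of tight junctions, rose from 11.3 ± 1.02 to 24.7 ± 0.656 CPM (log2 1.14). OCLN stood at 74.1 and 73.9 CPM in Scramble, and siHNRNPK was lower than that (log2 -1.62, edgeR adjusted p = 8.03e-13), so its direction turned with the control. DSP, which anchors desmosomes to keratins, fell from 488 ± 43.9 to 329 ± 26.2 CPM (log2 -0.57), and the surface protein CD24 fell from 11.9 ± 1.65 to 5.14 ± 0.407 CPM (log2 -1.21; SD, n = 4 each). Both were also lower in siHNRNPK than in Scramble (log2 -1.19 and -2.04). CTNNA1, CTNNB1 and CTNND1, the catenins that bind E-cadherin, gave -0.31, 0.33 and 0.67, all past the threshold (named after their values were seen). The list depended on the control: 28 of 34 were higher in Scramble than in siNTC5 and 26 of 34 lower in siHNRNPK than in Scramble, where 35.1% and 41.7% of all genes were. Both counts include TJP1 and MARVELD2, with at most 87 and 21 counts in any of the 8 libraries. In Scramble, TJP1 stood at 267 and 266 CPM and MARVELD2 at 27.9 and 27.4 CPM (log2 -5.57 and -4.54 for siHNRNPK against Scramble).

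Of 14 tested epithelial regulators of transcription and splicing, 7 rose and 3 fell (median 0.16), beside 35.5% and 36.1% of all genes. In the TruSeq libraries alone 3 rose, in a fit that called 57.8% of all genes in either direction, where the main fit called 71.5%. With Scramble added to the controls 3 rose and 1 fell, in a fit whose share over all genes is not given here. Against Scramble alone 5 were higher and 6 lower, beside 37.3% and 41.7% of all genes. ELF3, an epithelial ETS factor, rose by 0.25 on the log2 scale, while KLF4, a factor of differentiated epithelium, gave -0.53, and ESRP2, the paralogue of ESRP1, gave -0.35 with means of 82.0 ± 7.05 and 64.6 ± 8.80 CPM (SD, n = 4). The difference between ESRP2 and ESRP1 was not tested. In Scramble they stood at -0.81 and 0.58 against siNTC5, both past the threshold. Against Scramble, ELF3 was lower in siHNRNPK (log2 -0.18, edgeR adjusted p = 0.003126) and ESRP2 higher (log2 0.47, edgeR adjusted p = 3.779e-06), the reverse of their directions against siNTC5, while KLF4 stayed lower (log2 -1.63).

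Of 30 genes of intestinal identity only 9 were measured well enough to be tested, and 3 rose and 4 fell (median -0.21), beside 35.5% and 36.1% of all genes. Against Scramble 11 were tested, 1 higher and 7 lower, where 37.3% and 41.7% of all genes were. The 7 include KRT20, at 0 counts in the 8 libraries and 2.34 and 2.08 CPM in Scramble (log2 -9.11). EPHB2, a receptor of crypt cells, fell from 41.6 ± 4.12 to 17.3 ± 1.73 CPM (log2 -1.25), and the nuclear receptor PPARG fell from 68.4 ± 2.84 to 36.9 ± 3.54 CPM (log2 -0.89). HNF4A, a partner of CDX2 in intestinal cells, gave -0.67 and HNF4G 0.82 (both past the threshold and named after their values were seen). EPHB2, PPARG and HNF4A were also lower in siHNRNPK than in Scramble (log2 -1.93, -1.11 and -1.19), while HNF4G did not pass there (log2 0.29, edgeR adjusted p = 0.081).

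Of 15 regulators of the mesenchymal transition 8 were tested, of which 1 rose and 3 fell (median -0.10), beside 35.5% and 36.1% of all genes. ETS1 rose by 0.77 on the log2 scale, and HMGA2, a chromatin protein that promotes the transition in several tumours, fell from 322 ± 17.8 to 174 ± 19.2 CPM (log2 -0.90). ZEB2 had at most 2 counts and TWIST2 0 counts in the 8 libraries, while ZEB1, SNAI1, SNAI3, TWIST1 and TCF3 were tested. TWIST1 did not pass (log2 -0.09, edgeR adjusted p = 0.81). SNAI3, of the SNAI family, fell by 0.64 on the log2 scale at a mean of 2.68 CPM in siNTC5 (edgeR adjusted p = 0.03175), and TCF3, an E-box-binding factor, fell by 0.42 (edgeR adjusted p = 2.83e-05), both with overlapping groups and named after their values were seen. Against Scramble 0 of 9 tested were higher and 6 lower, where 37.3% and 41.7% of all genes were. ETS1, at 38.4 and 42.7 CPM in Scramble, was among the lower ones (log2 -0.34, edgeR adjusted p = 0.001684), so its direction turned with the control. HMGA2 kept its direction (log2 -1.01). The list also held SCRIB, a polarity gene that was not tested against siNTC5. It was among the 9 tested and the 6 lower against Scramble (log2 -11.8), where its counts differ between the tables as given above.

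The mesenchymal products had the widest range of log2 fold changes among the 6 lists. Of 23 tested, 11 rose and 7 fell, with a median of 0.17, beside 35.5% and 36.1% of all genes. Against Scramble the balance turned, with 10 of 27 higher and 14 lower, where 37.3% and 41.7% of all genes were. LGALS1, the matrix-binding galectin-1, fell from 417 ± 79.9 to 77.3 ± 15.2 CPM (log2 -2.44), and NT5E, the surface enzyme CD73, fell from 142 ± 14.1 to 30.0 ± 1.82 CPM (log2 -2.23). THBS1, the matrix protein thrombospondin-1, rose from 13.0 ± 2.61 to 94.3 ± 5.20 CPM (log2 2.85), and FBN1, the microfibril protein fibrillin-1, rose from 6.64 ± 1.05 to 11.6 ± 1.61 CPM (log2 0.82; SD, n = 4 each). The 4 genes kept these directions against Scramble, at -3.79, -3.57, 3.52 and 2.17. CDH2, the cadherin that replaces E-cadherin in mesenchymal cells, had at most 7 counts in the 8 libraries and was not tested.

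TGF-beta signalling is the pathway best known to drive this transition. Of 25 tested genes of TGF-beta and BMP signalling, 10 rose and 5 fell (median 0.00), beside 35.5% and 36.1% of all genes. Against Scramble the balance turned here too, with 8 of 27 higher and 13 lower, where 37.3% and 41.7% of all genes were. The 13 include ID3, with at most 1 count in any of the 8 libraries and 85.7 and 70.5 CPM in Scramble (log2 -14.3). SKIL, a repressor of SMAD activity that TGF-beta induces, rose from 15.4 ± 1.73 to 53.7 ± 2.40 CPM (log2 1.80), and the co-receptor ENG rose from 4.32 ± 0.674 to 13.1 ± 0.378 CPM (log2 1.59). ID1, a classical BMP target, fell from 114 ± 37.9 to 28.3 ± 7.69 CPM (log2 -1.99), and the ligand BMP7 fell from 14.1 ± 1.31 to 7.40 ± 0.854 CPM (log2 -0.92; SD, n = 4 each). SKIL, ENG, ID1 and BMP7 gave 1.27, 3.68, -3.66 and -1.10 against Scramble, the same signs.

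**Figure D4:**
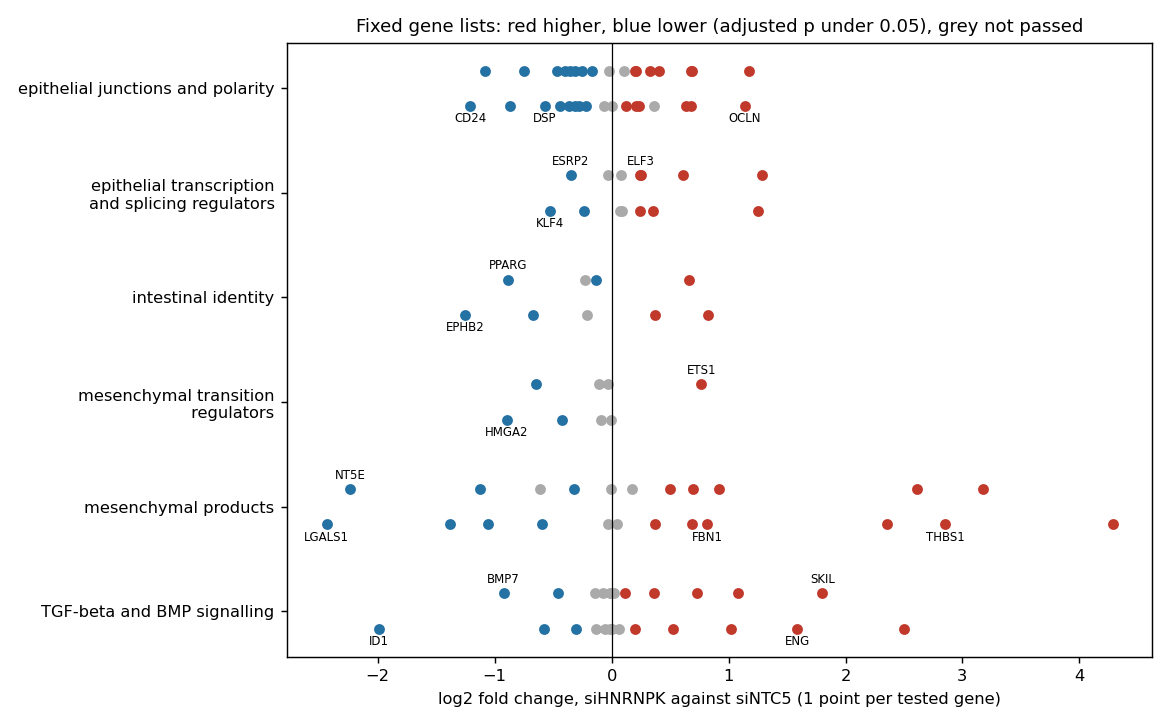
Log2 fold changes, siHNRNPK against siNTC5, of each tested gene in 6 lists around the members, with red for genes called higher, blue for genes called lower and grey for genes that did not pass; labelled genes are those described in the text. Each list spreads to both sides of 0, and the mesenchymal products reach from -2.44 (LGALS1) past 2.85 (THBS1).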

How the data were processed

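The RNA data are raw gene counts as deposited, whole numbers per gene symbol, in 1 table of 8 libraries and 1 table for each Scramble library. Reads were aligned with STAR 2.7.1a and counted with featureCounts, per the submitters' processing notes, which name hg38 and Subread 2.0.6 for the 8 libraries and both hg19 and hg38, with DESeq2, for Scramble. The ChIP-seq files are domain lists with a score deposited by the authors; bcl2fastq 2.20, fastp 0.23.2, Bowtie2 2.5.1, deepTools 3.1.3 and hg38 stand in the submitters' processing notes. The annotation, the strand counted, the domain caller, the use of inputs and any pooling are not given in the sources used here.

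Low genes were dropped by filterByExpr and libraries scaled by TMM, and the quasi-likelihood test of edgeR 4.0.16 (limma 3.58.1, R 4.3.3) was run with kit and treatment as terms. Benjamini-Hochberg adjustment covered all tested genes, with a threshold of 0.05. Scramble was compared on the 25527 names shared by the tables. A log2 fold change carries the standard error from edgeR. The script was tested on simulated data: of 13789 genes, it recovered 96 of 100 changed by 1 on the log2 scale and 77 of 100 changed by 0.5 for siHNRNPK against siNTC5. It called 7 genes that were left unchanged. Far fewer genes were changed in the simulation than the 71.5% called in the data, so these rates need not hold for the data. Domains were joined to RefSeq gene bodies for 26987 names.

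Deviations from the group means correlated between same-numbered libraries over 13933 genes (r = 0.1004, 0.4246, 0.3365 and 0.2653), and they also share a kit. With kit removed r was -0.1909, -0.1556, -0.2811 and -0.2515. A replicate block was run as an alternative.

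Members and lists were chosen with earlier results of these data known. Named besides the members were, per list, at most the 2 largest rises and 2 largest falls among genes called, of average log2 CPM 3 or more and with groups fully apart, and the 3 genes most like CDH1 and VIM; some genes this rule names are not reported here. Alternatives were DESeq2 1.42.0 and its size factors, upper-quartile scaling, other filters, other controls, single kits and each library left out.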

Additional observations from a re-analysis of the deposited data

How the results depend on the processing

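Of the knockdown calls, CDH1 kept its call in 20 of 21 alternatives, EPCAM in 21 of 21, CLDN4 in 20 of 21, FN1 in 15 of 21 and VIM in 20 of 20 (the stricter filter dropped it). The replicate block in place of kit changed no member's call (CDH1 0.66, VIM -1.66, FN1 -0.18 with edgeR adjusted p = 0.031) and called 9872 genes against 9968. The mesenchymal members called numbered 2, then 1 with upper-quartile scaling or the TruSeq libraries only, 0 with a mean of at least 50 counts, and 1 to 2 with 1 library left out. Signs turned, with no call in these settings, for CDX2 (0.0033 with DESeq2's size factors, 0.031 with upper-quartile scaling, 0.00066 with DESeq2's Wald test, 0.028 with the stricter filter, 0.037 in the Ligation libraries, and -0.098 to 0.088 with 1 library left out) and ZEB1 (0.0052, 0.0032 and 0.23 with upper-quartile scaling, the stricter filter and the TruSeq libraries, and -0.10 to 0.072 with 1 library left out). With Scramble as the control CDH1 gave -0.0058 and SNAI1 -0.14.

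For Scramble against siNTC5, 8 of the 10 members were called, where 68.6% of 14263 genes were. With no scaling beyond library totals 5 members were called, in a fit whose share over all genes is not given here. That setting was added after seeing the data and moved the median of all genes to -0.18. SNAI1 turned to -0.0027 with upper-quartile scaling, to -0.10 without scaling, and ran from -0.013 to 0.16 with 1 library left out. ZEB1 gave -0.030 without the kit term.

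The kit interaction called 18 genes (10 higher, 8 lower), 13 of them lower with upper-quartile scaling, 44 (30 and 14) with robust dispersion, 71 (42 and 29) with DESeq2, 239 (158 and 81) with no filter, and 6 to 598 (2 to 439 and 4 to 166) with 1 library left out. It called 0 members, and 1, CLDN4, without siNTC5 replicate 2. With 1 library left out, its estimate ran from -0.13 to 0.041 for CDH1, -0.030 to 0.48 for CLDN4, -0.13 to 0.36 for CDX2 and -0.31 to 0.13 for VIM. The causes were not tested. Depth limits SNAI2, with at most 23 counts, and VIM, with at most 63 in the 8 libraries.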

Other observations

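The 3 genes whose log2 CPM followed CDH1 most closely over the 8 libraries, after the kit means were removed, were TRMT1L, NRBF2 and CNOT6, with Pearson r of 0.998, 0.997 and 0.996. For VIM they were ITPR3, MYO5C and ARHGAP26, with r of 0.999, 0.999 and 0.998. These are descriptions over 8 libraries that share 1 contrast, and of 9990 genes compared, 2348 followed CDH1 and 2964 followed VIM with r over 0.9. TRMT1L, which modifies transfer RNA, rose from 33.7 ± 4.42 to 62.2 ± 8.19 CPM and CNOT6, a subunit of the CCR4-NOT deadenylase, from 135 ± 7.99 to 191 ± 9.19 CPM. ITPR3, a calcium channel of the endoplasmic reticulum, fell from 529.7 ± 14.5 to 277 ± 28.3 CPM, and MYO5C, a myosin of secretory epithelia, from 78.8 ± 6.54 to 35.5 ± 3.44 CPM (SD, n = 4 each). In Scramble, MYO5C stood at 38.5 and 36.1 CPM, in the range of the knockdown, and ITPR3 at 551 and 526 CPM, in that of siNTC5.

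Within the lists, 4 scarce matrix genes and 1 inhibitor of TGF-beta signalling fell outside the naming rule on average level and were picked after their values were seen. TGFBI had a mean of 0.0689 ± 0.0984 CPM in siNTC5 and 1.74 ± 0.586 CPM in siHNRNPK. COL5A1 had 0.184 ± 0.169 and 1.55 ± 0.465 CPM, SPARC 0.371 ± 0.130 and 1.93 ± 0.547 CPM, and NID2 0.488 ± 0.0336 and 3.00 ± 0.308 CPM (SD, n = 4 each). SMAD7, the inhibitory SMAD that TGF-beta induces, rose from 2.26 ± 0.552 to 12.9 ± 1.77 CPM, with a log2 fold change of 2.5 against siNTC5 and 2.80 against Scramble. For each of these 5 genes the 4 siHNRNPK libraries lay above the 4 siNTC5 libraries and the edgeR call was past the threshold. Of all tested genes, 28.5% were separated upward in this way and 35.5% were called higher. Among the 6 tested markers of colon epithelium 4 rose and 2 fell, beside 35.5% and 36.1% of all genes. The keratins KRT8 and KRT18 rose from 1159 ± 77.0 to 2310 ± 343 CPM and from 651 ± 18.0 to 1729 ± 109 CPM, as EPCAM and CDH1 rose, while CLDN4 and the keratin KRT19 fell, the latter from 806 ± 159 to 333 ± 57.2 CPM (each SD over 4 libraries). Against Scramble, KRT8 and KRT18 were also higher (log2 0.53 and 1.06) and KRT19 lower (log2 -2.43). Of the 6 markers 3 were higher and 2 lower there, beside 37.3% and 41.7% of all genes, and CDH1 did not pass (log2 -0.01).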
